A study of Mus musculus with 7 samples.

Results

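The basement membrane genes described here are 10 mouse genes: the heparan sulfate proteoglycans Agrn and Hspg2, the laminin chains Lama4, Lama5, Lamb1, Lamb2 and Lamc1, the nidogens Nid1 and Nid2, and the laminin and agrin receptor Dag1. They were taken by symbol, and all 10 were found among the 32212 genes of each expression table. Agrn was chosen by its FPKM difference between treated and control tumours in a first look at these libraries, and the other 9 for belonging to the same structure. The difference of Agrn between the groups is therefore a description with no test. Lewis lung carcinoma (LLC), a single transplantable mouse lung cancer line, had been injected under the skin of the right axilla of wild-type C57BL/6J mice at 6 weeks of age, and RNA was taken from the whole tumours. The 4 control libraries came from untreated model mice. The 3 treated libraries came from mice on 42.67 g/kg of the herbal remedy Ze-qi decoction (ZQD), named the high dose. The labels give 8 mice per group and assignment to groups at day 3. The tumours were collected at day 21 or day 22, as the labels give both. No label ties a library to a mouse of its own, so the p-values reflect only the spread between these libraries, which may be technical.

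Basement membranes are thin sheets of matrix that lie under epithelia and endothelia and around muscle, fat and nerve cells. Laminins, which are trimers of an alpha, a beta and a gamma chain, polymerise on cell surfaces by binding integrins and dystroglycan. Nidogens and perlecan link the laminin network to a network of type IV collagen, and agrin couples laminin to dystroglycan. In tumours these proteins are made by cancer cells, blood vessels and stromal cells, and carcinoma cells use them for adhesion and survival.

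Read totals were between 32065288 and 49914394 per control library and between 34765330 and 38673663 per ZQD library. Those of controls 1 and 2 came from deposited counts, and the others were rebuilt from the FPKM. Levels are FPKM, in which reads are divided by the length of the gene and the size of the library, so they can be set beside each other between genes. The share of reads from mitochondrially encoded genes was 5.18% to 7.96% in the controls and 8.78% to 11.1% under ZQD, and a larger share there lowers the FPKM of all other genes. The labels call the samples tumour cells. Macrophage markers summed to 733 to 1060 FPKM in the controls and 1077 to 1386 under ZQD. Of the 7 epithelial markers, Krt19 lay at 6.26 FPKM or more in all libraries, whereas Epcam, Krt8, Krt18, Krt7 and Cldn4 reached at most 0.702 and Cdh1 lay between 0.551 and 1.26. In the limma test across 14838 genes, 0 (0.0%) passed at a Benjamini-Hochberg adjusted p of 0.05. At an unadjusted p under 0.05, 1533 genes were lower in ZQD and 773 higher. This split was 1158 and 1008 with median-of-ratios scaling, 1093 and 1094 with TMM scaling, 1046 and 1142 without mitochondrially encoded genes, and 2861 and 377 on the TPM scale.

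Agrn and Lama5 had all 3 ZQD libraries below all 4 controls, at 61.2% and 68.8% of the mean control level. Of all genes tested, 9.84% had every ZQD library below every control, and Agrn was chosen by its difference in these libraries. Hspg2 was at 70.3% of the control mean, with one ZQD library inside the control range. The main beta and gamma chains and the major nidogen, Lamb1, Lamc1 and Nid1, were at 85.5%, 88.4% and 94.6%, with overlapping groups. Lama4 and Nid2, the 2 members of lowest level, spread more between the ZQD libraries than between the groups. None of the 10 passed the adjusted threshold in limma.

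**Figure D1:**
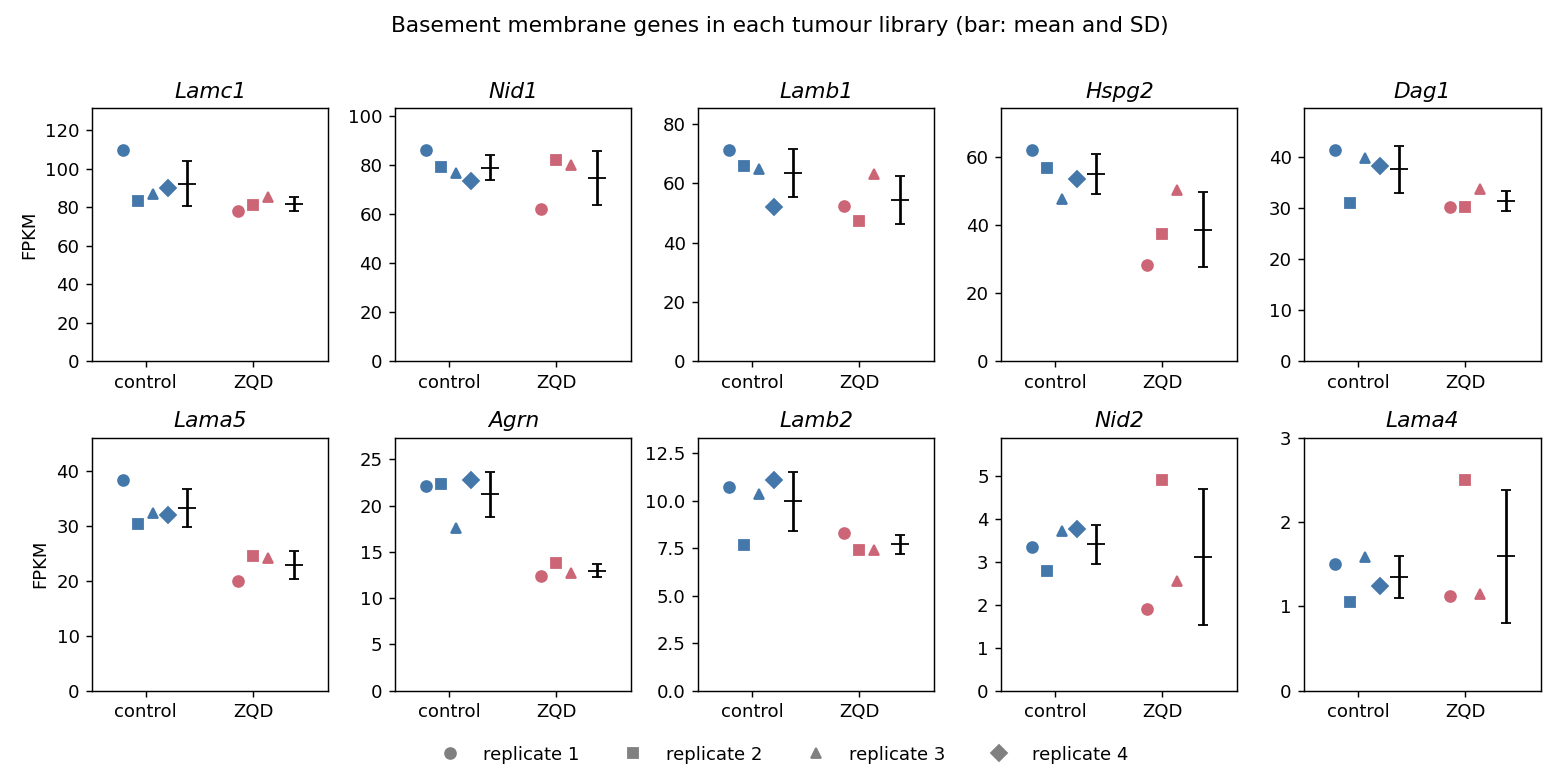
FPKM (vertical axes, each from 0) of the 10 basement membrane genes in 4 control (blue) and 3 ZQD (red) libraries, ordered by mean control level. Points are libraries, with marker shape for the replicate number within a group, and bars show mean and SD. Agrn and Lama5 are the 2 panels in which no ZQD point reaches the controls, as for 9.84% of all genes tested.

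In control tumours the laminin gamma chain Lamc1 had the highest level of the 10, at 92.3 ± 11.8 FPKM (SD, n = 4). The linker Nid1 followed at 78.9 ± 5.23, the beta chain Lamb1 at 63.5 ± 8.06 and perlecan, Hspg2, at 54.9 ± 5.96 FPKM. Dag1 was at 37.5 ± 4.57, Lama5 at 33.3 ± 3.50 and Agrn at 21.2 ± 2.42 FPKM. Lamb2 was at 9.97 ± 1.55, Nid2 at 3.41 ± 0.452 and Lama4 at 1.35 ± 0.248 FPKM. The control ranges of Lamc1 and Nid1, of Lamb1 and Hspg2, and of Dag1 and Lama5 overlapped. Within a library, Lamc1 exceeded Nid1 and Dag1 exceeded Lama5 in all 4 controls. Lamb1 exceeded Hspg2 in 3 of the 4. In ZQD tumours Nid1 exceeded Lamc1 in 1 of 3 libraries and Dag1 exceeded Hspg2 in 1 of 3. The other steps of the order held in every ZQD library.

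Agrn (ENSMUSG00000041936) encodes agrin, a large heparan sulfate proteoglycan first known from the neuromuscular junction, where it clusters acetylcholine receptors. It was at 22.1, 22.4, 17.6 and 22.8 FPKM in controls 1 to 4. In ZQD 1 to 3 it was at 12.4, 13.8 and 12.8 FPKM. Control 3 was the lowest control and still lay above the highest ZQD library, and the ZQD libraries varied little among themselves (12.98 ± 0.699 FPKM, SD, n = 3). The difference was -0.68 on the log2(FPKM + 0.5) scale, on which the change of a gene of low FPKM comes out too small. It rested on 4121 to 10252 reads per library. It ranged from -0.77 to -0.65 with 1 library left out, and was -0.80 on the TPM scale, which moves the median of all genes from -0.043 to -0.15, and -0.63 without mitochondrially encoded genes. All ZQD libraries stayed below all controls on the TPM scale, with median-of-ratios or TMM scaling and without mitochondrially encoded genes. In these settings, in that order, 17.9%, 7.52%, 7.08% and 6.70% of all genes tested had this pattern. Agrn was chosen by its difference in the same libraries, so its place among them carries no test. Over the 7 libraries, the genes whose log2 levels most resembled those of Agrn were Lats1 (Pearson r = 0.994), Napa (0.994), Rhoc (0.992), Spout1 (0.989) and Tsc1 (0.988), out of 11134 candidates with a mean of at least 1 FPKM. These correlations run over libraries of both groups, so they include the group difference for which Agrn was chosen. They do not reflect the size of a change. The log2 fold changes were -0.24 for Lats1, -0.29 for Napa, -0.58 for Rhoc, -0.43 for Spout1 and -0.15 for Tsc1.

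RefSeq promoter windows (GRCm38.p6) were found for 7 of the 10 genes. Those of Lama4, Lamc1 and Nid2 were not found. No source used here names the build of the files, so these windows describe the reference and no reads were placed on them. The windows of the 3 members with the lowest ZQD to control ratio are shown. Whether they regulate these genes here was not tested. In all 3 windows, the bases next to the start overlap a transcript in the GENCODE annotation. Each is the 250 bases before the annotated start, 5′ to 3′ on the strand of the gene, with the GC box GGGCGG or its reverse complement CCGCCC in capitals. The Agrn window lies at chr4:156197489-156197738 (minus strand), that of Lama5 at chr2:180225860-180226109 (minus strand) and that of Hspg2 at chr4:137468553-137468802 (plus strand).
Agrn: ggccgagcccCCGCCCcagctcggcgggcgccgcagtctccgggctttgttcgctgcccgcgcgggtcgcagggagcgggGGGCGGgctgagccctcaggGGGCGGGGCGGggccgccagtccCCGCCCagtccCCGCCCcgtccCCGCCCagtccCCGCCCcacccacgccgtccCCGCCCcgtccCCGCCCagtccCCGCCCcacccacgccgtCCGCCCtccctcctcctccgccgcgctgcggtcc
Lama5: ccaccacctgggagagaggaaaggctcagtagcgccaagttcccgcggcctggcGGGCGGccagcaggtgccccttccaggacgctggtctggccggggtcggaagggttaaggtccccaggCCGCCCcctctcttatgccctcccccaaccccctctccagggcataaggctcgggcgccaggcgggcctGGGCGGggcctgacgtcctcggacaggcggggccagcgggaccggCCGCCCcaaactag
Hspg2: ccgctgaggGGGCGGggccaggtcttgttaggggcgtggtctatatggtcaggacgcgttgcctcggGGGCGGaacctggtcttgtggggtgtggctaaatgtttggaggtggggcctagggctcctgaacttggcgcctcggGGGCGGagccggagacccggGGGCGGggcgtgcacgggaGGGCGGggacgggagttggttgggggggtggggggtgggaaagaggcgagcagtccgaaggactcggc

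The Agrn window held 12 GC boxes, counting overlapping matches on both strands, and 83.6% G and C. Of 32851 RefSeq windows of the same length, 0.320% were as rich in G and C, beside a median of 52.4%. At least 1 GC box was held by 32.7% of them, and 12 or more by 0.0152%. Lama5 had 4 and Hspg2 had 5, which 4.09% and 1.93% of windows reached. The windows not shown held fewer: both windows of Dag1 had 3, that of Lamb1 had 2, that of Nid1 had 1 and that of Lamb2 had 0. G and C made up 72.4% of the Lama5 window and 70.0% of that of Hspg2. The share was 67.6% and 74.8% in the Dag1 windows, 62.0% in Lamb1, 64.4% in Nid1 and 43.6% in Lamb2. The windows shown were picked by the expression difference. RefSeq also lists an inner start of Agrn, whose window (chr4:156186260-156186509) held 2. The gene-level tables cannot tell reads of the 2 starts apart. The hypoxia response core ACGTG (reverse complement CACGT), found in 16.6% of all windows, the TATA box TATAAA (12.4%) and the AP-1 motif TGACTCA (4.46%) were not in any of the 9 windows of the 7 genes. The TEAD motif GGAATG, in 12.6% of all windows, occurred once, in Nid1. These counts of letters show neither binding nor its lack.

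Among the laminin alpha chains, Lama5 (ENSMUSG00000015647), the alpha chain of laminin-511 and laminin-521, was by far the most abundant. It was at 38.4, 30.4, 32.4 and 31.96 FPKM in controls 1 to 4 and at 19.995, 24.6 and 24.1 in ZQD 1 to 3. ZQD 1 was the lowest library and the groups did not overlap. The log2 fold change was -0.53 (95% interval -0.78 to -0.28), and limma's adjusted p was 0.154. Of all 14838 genes, 9.84% had every ZQD library below every control, beside 2 of these 10, of which Agrn was chosen for that pattern. DESeq2 on reads rebuilt from the FPKM put Lama5 past its threshold (adjusted p = 0.00634), as it did 4.13% of the genes it gave an adjusted p (1.83% in the lower direction), whereas edgeR on the same reads did not (adjusted p = 0.139).

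Lama4 (ENSMUSG00000019846), the alpha chain of vascular and adipose laminin-411, was at 1.51, 1.05, 1.59 and 1.24 FPKM in the controls and at 1.13, 2.50 and 1.15 under ZQD. ZQD 2 stood above all controls, while ZQD 1 and ZQD 3 lay within their range. Its log2 fold change was 0.13 (95% interval -0.40 to 0.66, limma adjusted p = 0.825) and -0.16 without ZQD 2. The summed FPKM of 10 endothelial markers, including Cdh5 and Pecam1, was also highest in ZQD 2, at 44.1 against 20.4 to 35.0 in the controls and 22.3 and 32.5 in ZQD 1 and ZQD 3. That of 8 fibroblast markers was 213.4 there against 26.3 to 123.6 in controls. Macrophage and neutrophil markers were also highest in ZQD 2, at sums of 1386 and 69.1 FPKM. Adipocyte markers summed to 93.7 FPKM in ZQD 1, where Lama4 was at 1.13, and to 21.1 in ZQD 2. The part of these cells in the Lama4 value was not tested, and in bulk tissue fewer cells of a type and less RNA per cell cannot be told apart.

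The beta chains were led by Lamb1 (ENSMUSG00000002900), at 71.1, 65.98, 64.9 and 52.1 FPKM in the controls and 52.4, 47.2 and 63.3 under ZQD. The groups overlapped, since control 4 was as low as ZQD 1. The log2 fold change was -0.23 (95% interval -0.53 to 0.081, limma adjusted p = 0.448), and it was -0.13 without ZQD 2 and -0.34 without ZQD 3. Lamb2 (ENSMUSG00000052911), the beta chain of synaptic, glomerular and vascular laminins, was at 10.7, 7.70, 10.3 and 11.1 FPKM in the controls and 8.29, 7.43 and 7.41 under ZQD. Control 2 was the one control within the range of the treated tumours, and the log2 fold change was -0.34 (limma adjusted p = 0.280). Lamb2 made up 13.7% ± 2.93 (SD, n = 4) of the summed FPKM of Lamb1 and Lamb2 in the controls and 12.6% ± 1.81 (SD, n = 3) under ZQD, a difference smaller than the spread.

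The gamma chain Lamc1 (ENSMUSG00000026478), which is part of most laminin trimers, was at 109.5, 82.9, 86.8 and 89.8 FPKM in the controls and 78.2, 80.9 and 85.5 under ZQD. Control 1 stood above the rest, and ZQD 3 lay within the control range. The log2 fold change was -0.17 (95% interval -0.41 to 0.074, limma adjusted p = 0.471), and it was -0.086 without control 1. Lama5 and Lamb1, which join Lamc1 in laminin-511, accounted for 93.6% and 86.1% of the summed FPKM of the alpha and beta chains in controls. In ZQD the shares were 91.7% and 87.1%.

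The balance of the chains within a library does not depend on how the libraries are scaled to each other. The summed alpha chains were at 38.0%, 39.0%, 40.3% and 37.3% of Lamc1 in controls 1 to 4, and at 27.7%, 34.0% and 30.1% in ZQD 1 to 3. The groups did not overlap. Lama5 was 93.6% of the summed alpha chains in controls and 91.7% under ZQD, so this sum largely repeats the Lama5 values. The summed beta chains were at 70.6% to 88.9% of Lamc1 in the controls and 68.0% to 82.9% under ZQD, which did overlap. Lama5 alone was at 36.1% ± 1.02 (SD, n = 4) of Lamc1 in the controls and 28.0% ± 2.40 (SD, n = 3) under ZQD. Agrn was at 20.2% to 27.0% of Lamc1 in the controls and 14.9% to 17.0% under ZQD, again without overlap. Hspg2 was at 54.8% to 68.3% in the controls and 36.0% to 58.8% under ZQD, and Nid1 at 78.5% to 95.6% and 79.5% to 101.4%. Lamc1 was taken as the base after the levels were seen, as the most abundant member, and these ratios come from the contrast for which Agrn was chosen, so they carry no test. The share of all genes whose ratio to Lamc1 also separates the groups was not computed.

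**Figure D2:**
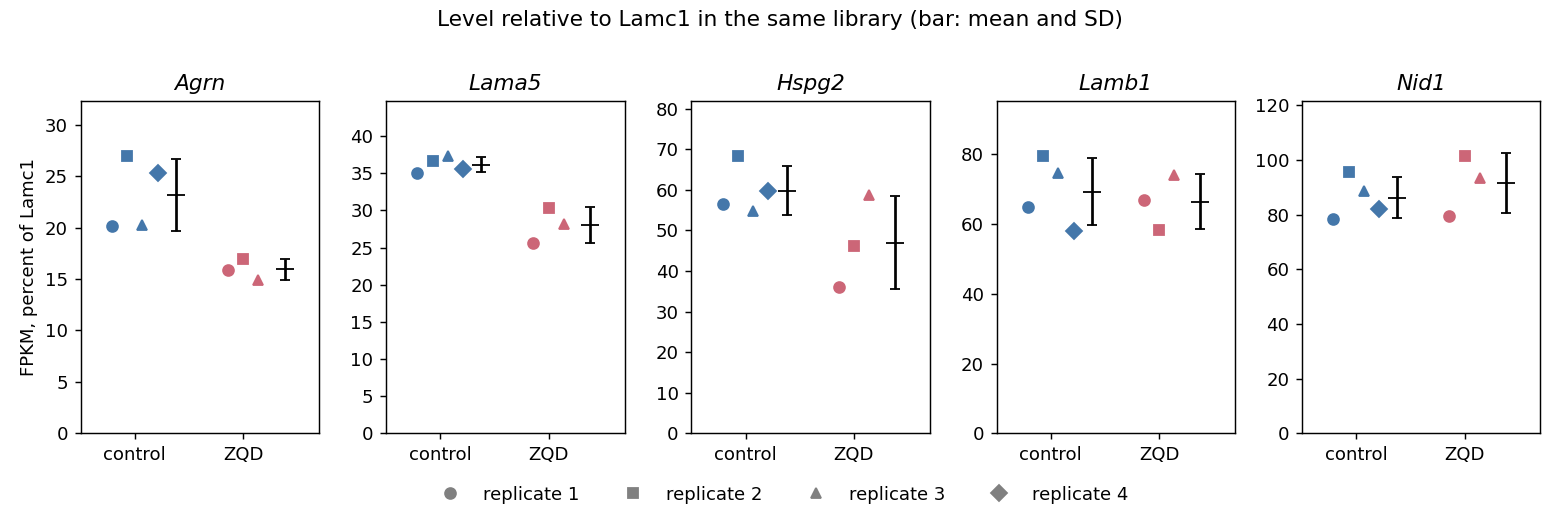
FPKM as a percent of Lamc1 in the same library (vertical axes, from 0) for 5 genes in 4 control (blue) and 3 ZQD (red) libraries, with mean and SD as bars. The Agrn and Lama5 points of the groups are apart, at 20.2% or more against 17.0% or less and at 35.1% or more against 30.4% or less, while those of Hspg2, Lamb1 and Nid1 overlap.

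Hspg2 (ENSMUSG00000028763) encodes perlecan, the main heparan sulfate proteoglycan of vascular basement membranes, which binds growth factors through its chains. It was at 61.8, 56.7, 47.6 and 53.5 FPKM in the controls and at 28.2, 37.4 and 50.2 under ZQD. The ZQD libraries were far apart: ZQD 1 was lowest of all 7 and ZQD 3 lay above control 3. The log2 fold change was -0.54 (95% interval -0.95 to -0.12), with a limma adjusted p of 0.243, and 2.75% of all genes had one as low or lower. It was -0.33 without ZQD 1 and -0.74 without ZQD 3. In ZQD 1, 5 adipocyte markers, led by Cfd and Fabp4, summed to 93.7 FPKM, against 2.25 to 6.46 in controls, 21.1 in ZQD 2 and 2.43 in ZQD 3. Whether fat tissue in that library moved the Hspg2 value was not tested.

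Nid1 (ENSMUSG00000005397), which links laminin gamma chains to collagen IV, was at 85.9, 79.3, 76.9 and 73.5 FPKM in the controls and 62.2, 82.0 and 79.8 under ZQD. Only ZQD 1 lay outside the control range. The log2 fold change was -0.087 (95% interval -0.35 to 0.17, limma adjusted p = 0.744) and 0.038 without ZQD 1. Nid2 (ENSMUSG00000021806), its less abundant relative, was at 3.35, 2.79, 3.73 and 3.76 FPKM in the controls and 1.89, 4.91 and 2.56 under ZQD. The lowest and the highest library were thus both treated ones, as ZQD 2 was highest for Nid2 and for Lama4. Its log2 fold change was -0.19 (95% interval -0.77 to 0.39, limma adjusted p = 0.752), 0.065 without ZQD 1 and -0.52 without ZQD 2. Nid2 shares exonic sequence with Rtraf on the opposite strand in GENCODE M21, which was at 78.2 FPKM in the controls and 83.8 under ZQD. Without a known strand setting, reads of that stretch cannot be told apart.

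Dag1 (ENSMUSG00000039952) encodes both subunits of dystroglycan, whose sugar chains bind the globular domains of laminin, agrin and perlecan. It was at 41.2, 30.9, 39.8 and 38.1 FPKM in the controls and 30.2, 30.1 and 33.7 under ZQD. Control 2 was the one control near the treated tumours, and ZQD 3 lay above it. The log2 fold change was -0.25 (95% interval -0.50 to 0.0047, limma adjusted p = 0.328).

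**Figure D3:**
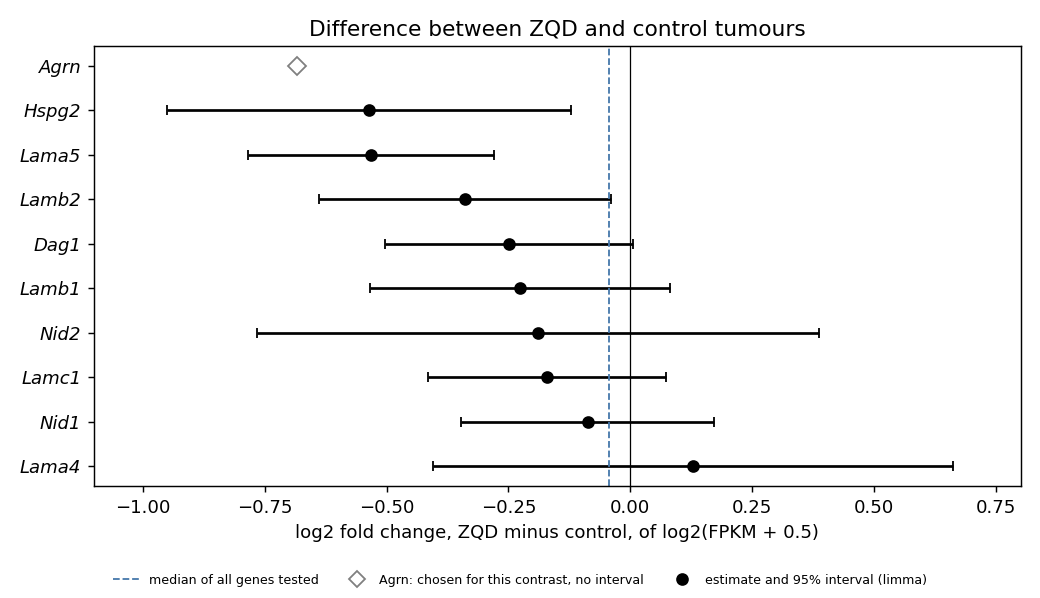
Log2 fold change of ZQD minus control (horizontal axis, on log2(FPKM + 0.5)) for the 10 genes, with 95% intervals from limma for all but Agrn, which was chosen for this contrast (open diamond). The dashed line is the median of all genes tested (-0.043). The intervals of Lama5, Hspg2 and Lamb2 lie below 0 before any adjustment for multiple tests, and those of the other 6 genes include 0.

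Of the 10 genes, 9 had a log2 fold change below 0 (Agrn being chosen for it), with a median of -0.24, beside 58.2% of all genes tested and a median of -0.043. With ZQD 1 left out 7 of 10 were below 0, and with ZQD 2 left out all 10 were. At an unadjusted p under 0.05 in limma, 3 of the other 9 were lower (Lama5, Hspg2 and Lamb2) beside 10.3% of all genes, and 0 were higher beside 5.21%. Across the 7 libraries, the log2 levels of Lama5 ran with those of Agrn (Pearson r = 0.88), Hspg2 (0.86), Lamc1 (0.82) and Dag1 (0.81). Lama4 ran with Nid2 (0.81) but not with Agrn (-0.19). These correlations describe 7 libraries that share the group difference and the scaling of each library.

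Other basement membrane proteins gave a mixed picture. Of 23 listed, 15 were tested, 0 passed over all genes, and 11 had a log2 fold change below 0 and 4 above (median -0.12). Of all genes tested, 58.2% were below 0, with a median of -0.043. That median depends on scaling, and was 0.0034 without mitochondrially encoded genes. The ubiquitous collagen IV chains Col4a1 and Col4a2 had control levels of 94.9 ± 15.9 and 66.2 ± 12.9 FPKM (SD, n = 4) and ZQD levels of 67.6 ± 14.2 and 52.2 ± 12.9 (SD, n = 3). Their log2 fold changes were -0.49 and -0.35 (-0.31 and -0.13 without ZQD 1). Col18a1, the source of endostatin, was at 58.3 ± 15.8 against 43.4 ± 1.86 FPKM. Its log2 fold change was -0.39, and -0.22 without control 1. Sparc, a collagen-binding glycoprotein and the most abundant of the list, was at 369.2 ± 38.9 against 369.9 ± 66.7 FPKM. Col15a1, a collagen of vascular and muscle basement membranes named here after its value was seen, had the largest log2 fold change of the list, 1.11 (limma adjusted p = 0.321). It was at 2.19, 0.693, 1.76 and 0.672 FPKM in controls 1 to 4 and at 4.00, 6.10 and 1.17 in ZQD 1 to 3. ZQD 1 and ZQD 2 lay above all controls and ZQD 3 within their range. Of the laminin chains beyond the members, Lama2 was at 0.581 ± 0.530 against 0.215 ± 0.0545 FPKM, Lama1 at 0.285 ± 0.167 against 0.156 ± 0.0660, Lamb3 at 0.132 ± 0.0388 against 0.219 ± 0.126 and Lama3 at 0.113 ± 0.0331 against 0.120 ± 0.0379. These 4 did not pass the filter of 0.5 FPKM in 3 libraries.

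The signalling receptors of agrin at the neuromuscular junction were at low levels, and none of 6 genes of this pathway passed the filter of 0.5 FPKM. The agrin receptor Lrp4 was at 0.186 ± 0.0181 FPKM in controls (SD, n = 4) and 0.172 ± 0.0702 under ZQD (SD, n = 3), from 36 to 95 reads per library. The adaptors Rapsn and Dok7 were at 0.107 ± 0.0857 against 0.0526 ± 0.0668 and 0.0671 ± 0.0474 against 0.0773 ± 0.0357. The acetylcholine receptor subunit Chrna1 was at 0.320 FPKM in control 1 and at most 0.0918 in the other libraries. Skeletal muscle markers were also highest in control 1, where 8 of them summed to 32.3 FPKM, against 2.23 to 9.91 in the rest.

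The cytoplasmic and membrane partners of dystroglycan were present. Of 13 listed, 6 were tested, all with log2 fold changes below 0 (median -0.20) beside 58.2% of all genes tested, and 0 passed. Utrophin, Utrn, which ties dystroglycan to actin, was at 16.3 ± 1.81 FPKM in the controls and 14.3 ± 0.300 under ZQD. Sntb2, a syntrophin, was at 13.2 ± 1.62 against 11.4 ± 1.32, the sarcoglycan Sgcb at 6.45 ± 0.738 against 5.65 ± 1.19, and sarcospan, Sspn, at 5.83 ± 0.931 against 4.75 ± 0.783 FPKM. Of the enzymes that build the laminin-binding sugar of dystroglycan, 14 of 17 were tested and 0 passed. Of these, 13 were below 0 and 1 above (median -0.16), beside 58.2% of all genes tested below 0. The most abundant were Rxylt1 (8.54 ± 0.602 against 8.26 ± 0.652 FPKM), Dpm2 (8.54 ± 1.05 against 7.66 ± 0.532), Pomk (6.58 ± 0.903 against 5.84 ± 1.21) and Dpm3 (6.00 ± 0.801 against 4.28 ± 0.345).

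Among laminin-binding integrins and other matrix receptors, 16 of 17 were tested and 0 passed. A log2 fold change below 0 was found for 11 and above 0 for 5 (median -0.18), beside 58.2% of all genes tested below 0. Itgb1, the beta subunit shared by most laminin-binding integrins, was at 347.1 ± 31.0 FPKM in the controls and 310.4 ± 15.3 under ZQD. Its partner Itga3, which prefers laminin-511 and laminin-332, was at 43.3 ± 7.32 against 34.7 ± 4.26 FPKM (log2 fold change -0.31). The syndecans Sdc2 and Sdc4, cell surface heparan sulfate proteoglycans, were at 64.4 ± 24.0 against 47.3 ± 4.14 and 61.9 ± 5.67 against 52.9 ± 9.56 FPKM (log2 fold changes -0.37 and -0.24). That of Sdc2 was -0.16 without control 1 and that of Sdc4 -0.081 without ZQD 1.

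Agrin and perlecan carry heparan sulfate chains. Of 25 genes that assemble, sulfate or trim these chains, 20 were tested and 0 passed. The log2 fold change was below 0 for 16 and above for 4 (median -0.20), beside 58.2% of all genes tested below 0. The 4 most abundant were Hs6st1, Ndst1, Extl3 and Ext1. Hs6st1, a sulfotransferase, was at 32.1 ± 7.56 against 26.0 ± 7.36 FPKM. Ndst1, which starts chain sulfation, was at 30.3 ± 3.48 against 25.6 ± 1.02 FPKM. Extl3 was at 27.7 ± 3.60 against 23.8 ± 1.79 and the polymerising enzyme Ext1 at 18.6 ± 2.66 against 15.1 ± 0.955 FPKM. All ZQD libraries lay below all controls for 4 of these 20 genes, 4 of the 14 dystroglycan glycosylation genes, 3 of the 16 receptors, 2 of the 15 other basement membrane proteins and 0 of the 6 dystroglycan partners, beside 9.84% of all genes tested. They lay above all controls for 1 gene of these lists, in the heparan sulfate list, beside 5.35% of all genes tested.

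**Figure D4:**
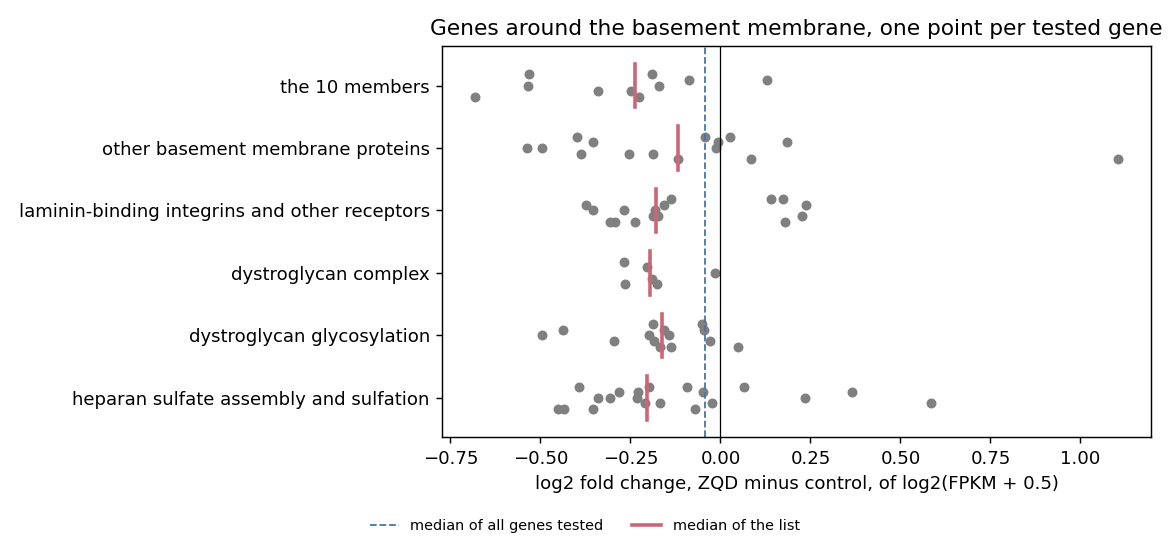
Log2 fold change of ZQD minus control (horizontal axis) for each tested gene of 6 lists, with the median of each list in red and that of all genes tested (-0.043) as a dashed line. The list medians lie between -0.24 and -0.12, and 0 genes of any list passed the adjusted threshold.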

How the data were processed

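Per the labels' protocols, poly(A) RNA of tumour tissue was made into paired-end libraries. Every library has FPKM made by the authors, and controls 1 and 2 also have deposited counts of reads per gene. HISAT2, featureCounts, Subread and DESeq2 are named per the submitters' processing notes, whereas tool versions, strand setting, genome build and annotation are not stated in any source used here. Symbols came from a gene name table (31571 of 32212 identifiers matched).

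Where counts exist, FPKM is count over gene length over library total, and solving for length succeeded for 27421 genes. Reads rebuilt from the FPKM were within 0.05 of a whole number for 100% of values with a length in the 5 other libraries.

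The main test was limma 3.58.1 (trend, two-sided, Benjamini-Hochberg) with R 4.3.3. It used log2(FPKM + 0.5) of the 14838 genes with at least 0.5 FPKM in at least 3 libraries. All 10 members passed this filter. Alternatives were edgeR 4.0.16 and DESeq2 1.42.0 on rebuilt reads (14832 genes, of which 2307 had an adjusted p of NA in DESeq2), other pseudocounts, filters and scalings, a replicate block and each library left out. The fits were tested on simulated reads first. Figures used matplotlib 3.10.9.

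The members and lists were chosen with earlier results of these data known. Named are all members, the 4 most abundant genes of each list, and the 5 tested genes most correlated with Agrn, leaving out predicted genes. Some genes are not reported here. Sequences are from RefSeq (GRCm38.p6).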

Additional observations from a re-analysis of the deposited data

Results flagged for a closer look

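Among the 4 controls, 6 of 47 series of values held a library far from the others by Dixon's test. Chance marks about 1 in 20 independent groups, but these series share the same 4 libraries, so the count cannot be read against that share. Agrn was at 17.6 FPKM in control 3 against 22.1 to 22.8 in the other controls. Without that library the Agrn difference was -0.77 in place of -0.68. Napa and Spout1 were chosen for their likeness to Agrn over these libraries, so their low value in the same library follows from that choice. They were at 17.6 against 19.5 to 19.7 FPKM and at 4.34 against 4.99 to 5.10 FPKM. Col4a1 was at 118.6 FPKM in control 2 against 84.2 to 88.5, and its log2 fold change was -0.38 without that library. Utrn was at 13.6 FPKM in control 2 against 16.9 to 17.4. Chrna1 was at 0.320 FPKM in control 1 against 0.00587 to 0.0569.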

How the results depend on the processing

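DESeq2 on the rebuilt reads called 517 genes, Lama5 among them, where limma and edgeR called 0. The genes with an unadjusted p under 0.05 numbered 2861 lower and 377 higher on the TPM scale, 1383 higher without a filter and 1188 higher in DESeq2. The replicate block called 1 gene, Marco, named after its value was seen, and 0 members. That fit rests on 6 libraries because control 4 has no partner, and the correlations of same-numbered libraries were 0.25, 0.0998 and -0.15, so the numbers were not taken to pair them. The number of members with all ZQD libraries below all controls was 2 to 5 with 1 library left out, beside 11.7% to 17.2% of genes. It was 5 without control 2 or without ZQD 3. Leaving out a library can only keep or raise this number. That Agrn and Lama5 were among them each time was therefore fixed in advance. The share of Lamb2 was 8.90% in controls and 8.12% in ZQD from reads, which count longer genes more. Among members, direction turned for Lama4 without ZQD 2 (-0.16), Nid1 without ZQD 1 (0.038) and Nid2 without ZQD 1 (0.065). With 1 library left out, Lama4 ranged from -0.16 to 0.28, Nid1 from -0.16 to 0.038 and Nid2 from -0.52 to 0.065. Elsewhere, Rxylt1 was at 0.0067 without mitochondrially encoded genes, and Sparc was at 0.026, 0.038 and 0.049 with median-of-ratios, TMM and mitochondria-free scaling, 0.047 in edgeR and in DESeq2, and -0.15 to 0.081 with 1 library left out. The cause of these changes was not tested. The other 7 members kept their direction under all 18 alternatives.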
